A study of Mus musculus with 4 samples.

Results

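Chemokine ligands are small secreted proteins that direct the migration of leukocytes, and their genes were taken as every array probe named for a CC or CXC ligand (Ccl or Cxcl with a number), together with Cx3cl1, Xcl1 and Pf4. The rule found 48 of 55681 probes, which stand for 36 genes. Of these, 28 genes were measured, meaning that in GW3965 or DMSO cells, or both, the scanner software judged a probe well above background on each of the 2 arrays, among 24637 genes and named features measured in all. The RNA came from primary hepatocytes of bl6 mice, plated in medium with 10% serum and then kept overnight in medium with 0.5% serum. One group received 1 µM GW3965, which activates LXR (liver X receptors, the nuclear receptors for oxysterols), and the other group received the solvent DMSO. Both groups also received 5 µM simvastatin, which blocks cholesterol synthesis at HMG-CoA reductase, and 100 µM mevalonic acid, the product of that enzyme, so no array shows untreated cells. Each group has 2 arrays, named replicates a and b. The labels do not say whether a and b came from separate mice or cultures, so the p-values measure only the spread between these samples, which may be technical. The treated arrays carry GW in their titles, LXR against GW3965 as treatment label and GL in the scanner's own names, and are taken here as those given the agonist, which the study's design names.

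CC and CXC ligands differ in the spacing of their first conserved cysteines, and each binds one or several G protein-coupled receptors on leukocytes. In the injured liver, hepatocytes, Kupffer cells, stellate cells and endothelial cells are all known sources. Many of the inflammatory members are switched on by NF-kB after TNF, IL-1 or bacterial products, and the CXCR3 ligands by interferons, while LXR agonists are known to repress a subset of NF-kB targets in macrophages.

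No chemokine gene passed the test for GW3965 against DMSO. With limma and Benjamini-Hochberg adjustment over all 24637 genes, 0 of 28 members passed an adjusted p of 0.05, where the share called over all genes was 0%, and 0 of 28 passed an unadjusted limma p of 0.05, where 203 genes or 0.824% did so. The mean was lower with GW3965 for 20 of the 28 genes, or 71.4%, against 51.5% of all genes. The median log2 difference, GW3965 minus DMSO, was -0.13 over the members and -0.01 over all genes. Within both replicate letters, GW3965 was below DMSO for 15 of the 28, against 24.4% of all genes, and above it for 6, against 25.4%. Leaving out an array unbalances the letters: 7 of 28 members were lower without GW3965 replicate b and 11 of 29 without DMSO replicate a, with medians of 0.16 and 0.22. In the other direction, 24 of 30 were lower without GW3965 replicate a and 23 of 29 without DMSO replicate b, with medians of -0.38 and -0.45. For 22 of 28 genes, or 78.6%, the group difference was smaller than the replicate gaps of both groups, against 65.9% of all genes. In both groups the levels on replicate b were lower than on replicate a for 20 of 28 genes, or 71.4%, against 31.8% of all genes. They were over 2-fold lower in both groups for 9 of 28, or 32.1%, against 2.0% of all genes. Those 9 are Ccl2, Ccl3, Ccl4, Ccl5, Ccl7, Cxcl3, Cxcl5, Cxcl14 and Pf4.

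The treatment itself registered on the arrays. Abca1, the cholesterol exporter and a classical LXR target, read 3.31 and 3.86 on GW3965 replicates a and b, against 1.46 and 0.55 on DMSO replicates a and b. All levels here are log2 signals relative to the array's 75th percentile, so that 0 is the signal at that percentile of the probes. The difference was 2.58 ± 0.39 (± gives the SE of the fit throughout). Abcg1, a second exporter, differed by 1.98 ± 0.29 and Srebf1, the driver of fatty acid synthesis, by 1.24 ± 0.20. All 6 listed LXR targets were higher on both GW3965 arrays than on both DMSO arrays and had an unadjusted limma p under 0.05, and none passed after adjustment, with 2 arrays a group. For 1 gene alone an exact two-sided permutation test of 2 against 2 cannot go below p = 0.333. Probes well above background made up 64.1% and 69.1% on GW3965 replicates a and b, against 62.5% and 65.2% on DMSO replicates a and b. All 4 arrays sat on 1 slide, the replicate a arrays at positions 1 and 2 and the replicate b arrays at 3 and 4, so replicate letter and slide position cannot be told apart.

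The hepatocyte label was borne out by markers: 8 of 8, among them Alb, Ttr and Hnf4a, were measured and well above background on all 4 arrays. Their summed linear level, in units of the signal at the 75th percentile, was 2356 and 1460 on GW3965 replicates a and b, against 2189 and 1701 on DMSO replicates a and b. Other liver cells were represented too. Kupffer cell and macrophage markers were measured for 8 of 8 genes, among them Adgre1, Csf1r and Cd68. They summed to 53.6 and 31.4 on GW3965 replicates a and b, against 46.8 and 28.2 on DMSO replicates a and b. Cd68 made up most of each sum, at 5.53 and 4.76 on GW3965 replicates a and b, against 5.30 and 4.54 on DMSO replicates a and b. The Kupffer cell marker Clec4f was well above background on 3 arrays only, and Vsig4 read -4.57 to -3.58 over the 4 arrays. Both lists were lower on replicate b in both groups, for 8 of 8 hepatocyte genes and 7 of 8 macrophage genes, as the chemokine genes were. In bulk RNA, fewer cells of a type and less RNA per cell cannot be told apart.

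**Figure D1:**
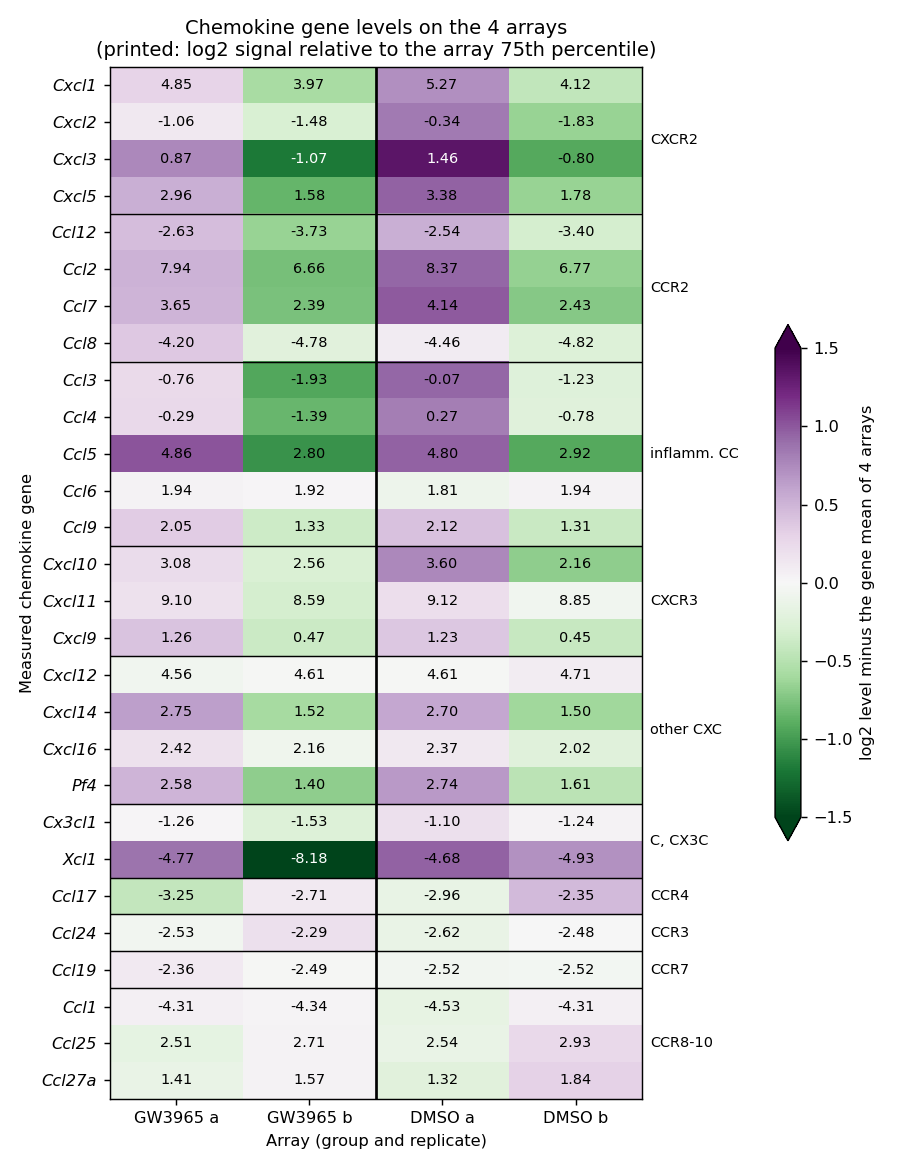
The log2 level of each of the 28 measured chemokine genes, relative to the array's 75th percentile, is printed for the 4 arrays, GW3965 left and DMSO right, with genes grouped by receptor or kind. Colour gives the level minus the gene's mean over the 4 arrays, purple high and green low. Both replicate a columns are purple and both replicate b columns green for most genes from Cxcl1 to Pf4.

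The neutrophil-attracting CXC ligands act on CXCR2 and carry the ELR motif. Cxcl1, known as KC, read 4.85 and 3.97 on GW3965 replicates a and b, against 5.27 and 4.12 on DMSO replicates a and b. Cxcl2, known as MIP-2, read -1.06 and -1.48 on GW3965 replicates a and b, against -0.34 and -1.83 on DMSO replicates a and b. Cxcl3, a close paralog of both, read 0.87 and -1.07 on GW3965 replicates a and b, against 1.46 and -0.80 on DMSO replicates a and b. In all of these genes the DMSO a array was highest and a replicate b array lowest, and the groups overlapped. Cxcl5, known as LIX and secreted by epithelial cells, followed the same order with 2.96 and 1.58 on GW3965 replicates a and b, against 3.38 and 1.78 on DMSO replicates a and b. The mean was lower with GW3965 for 4 of 4, with differences from -0.43 ± 0.99 for Cxcl3 to -0.18 ± 0.53 for Cxcl2, none larger than its SE. The 95% interval for Cxcl1 ran from -1.60 to 1.04 and that for Cxcl3 from -3.02 to 2.15, so changes of 2-fold either way lie within both. When 1 array was left out, the Cxcl2 difference ran from -0.93 without DMSO replicate b to 0.56 without DMSO replicate a. The Cxcl1 probe lies at chr5:91321845-91321904 and the Cxcl3 probe at chr5:91216694-91216753, both on the plus strand of mm9. The fifth member, Cxcl15, was well above background on 0 of 4 arrays.

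The upstream sequences of these genes are shown because they share an NF-kB binding motif at a similar place. Promoters from RefSeq, build GRCm38.p6, were matched for 25 of the 36 genes, 20 of them measured. Each is a window of 300 bases around the start of the gene. Only the 250 bases before the start were searched, on both strands, for a 10-base kappa B motif. Such a match occurred in 6 of the 25 genes (Cxcl1, Cxcl2, Cxcl3, Cxcl10, Ccl9 and the unmeasured Ccl20), against 3.90% of 32851 windows over all genes. Members were counted by gene and the background by window, where the 32851 windows stand for 27025 genes. The 170 bases before the start of 4 of them are printed 5′ to 3′, with the matches in capitals:
Cxcl1, chr5:90891075-90891244, plus strand: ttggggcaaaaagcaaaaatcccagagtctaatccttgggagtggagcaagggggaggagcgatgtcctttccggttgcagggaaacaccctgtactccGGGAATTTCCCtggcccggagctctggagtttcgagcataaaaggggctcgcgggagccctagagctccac
Cxcl2, chr5:90903729-90903898, plus strand: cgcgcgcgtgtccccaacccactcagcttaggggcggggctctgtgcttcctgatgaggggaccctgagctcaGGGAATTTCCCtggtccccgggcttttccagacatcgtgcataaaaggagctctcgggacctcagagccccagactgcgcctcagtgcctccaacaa
Cxcl3, chr5:90785931-90786100, plus strand: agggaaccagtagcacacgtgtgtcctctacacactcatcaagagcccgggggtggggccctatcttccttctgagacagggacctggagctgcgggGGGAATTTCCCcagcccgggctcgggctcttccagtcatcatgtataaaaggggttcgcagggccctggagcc
Cxcl10, chr5:92348890-92349059, minus strand: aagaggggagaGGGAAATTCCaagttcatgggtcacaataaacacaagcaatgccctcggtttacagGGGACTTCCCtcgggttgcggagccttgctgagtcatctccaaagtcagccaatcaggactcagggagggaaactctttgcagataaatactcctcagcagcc
In Cxcl1, Cxcl2 and Cxcl3 the capitals are the same 11 letters and hold 2 overlapping matches, whose first base lies 71, 97 and 73 bases before the start. Aligned over these stretches, 54.1% to 57.7% of columns were identical between pairs of these 3 genes, and 47.3% to 47.8% between each of them and Cxcl10, whose 2 separate matches begin 159 and 103 bases before the start. A DR4 element, the direct repeat that LXR with its partner RXR binds, was sought in the same 250 bases. It was found in 0 of 25 members and in 0.195% of all windows. A match describes letters only, and no match says only that these letters are not in the bases searched. Among the 9 genes over 2-fold lower on replicate b, 4 had a promoter here and 1 of them, Cxcl3, held a kappa B match, against 4 of the other 16 measured genes.

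The next genes were listed as monocyte-attracting ligands of CCR2, and which receptor each uses was not tested. Ccl2, or MCP-1, the main CCR2 ligand, read 7.94 and 6.66 on GW3965 replicates a and b, against 8.37 and 6.77 on DMSO replicates a and b, from 10 spots on each array (chr11:81850650-81850709, plus strand). Ccl7, or MCP-3, read 3.65 and 2.39 on GW3965 replicates a and b, against 4.14 and 2.43 on DMSO replicates a and b. Both had replicate a high and replicate b low in each group, by 2.44-fold with GW3965 and 3.03-fold with DMSO for Ccl2, and by 2.40-fold and 3.27-fold for Ccl7. Ccl12, a mouse CCR2 ligand, read -2.63 and -3.73 on GW3965 replicates a and b, against -2.54 and -3.40 on DMSO replicates a and b. Ccl8, or MCP-2, read -4.20 and -4.78 on GW3965 replicates a and b, against -4.46 and -4.82 on DMSO replicates a and b. All groups overlapped. The differences were -0.27 ± 0.69 for Ccl2, -0.26 ± 0.71 for Ccl7, -0.21 ± 0.49 for Ccl12 and 0.15 ± 0.29 for Ccl8, with a 95% interval for Ccl2 from -2.08 to 1.54.

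A further group of inflammatory CC ligands attracts monocytes, macrophages and T cells. Ccl3, or MIP-1α, read -0.76 and -1.93 on GW3965 replicates a and b, against -0.07 and -1.23 on DMSO replicates a and b. Ccl4, or MIP-1β, read -0.29 and -1.39 on GW3965 replicates a and b, against 0.27 and -0.78 on DMSO replicates a and b. For both genes each GW3965 array was below the DMSO array of the same letter, yet GW3965 replicate a was above DMSO replicate b, so the groups overlapped. The differences, -0.70 ± 0.57 for Ccl3 and -0.59 ± 0.53 for Ccl4, kept their sign when any array was left out, over ranges of -1.28 to -0.11 and -1.14 to -0.04. Their unadjusted limma p was 0.28 and 0.32 and their adjusted p 1.00.

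Ccl5, or RANTES, read 4.86 and 2.80 on GW3965 replicates a and b, against 4.80 and 2.92 on DMSO replicates a and b (chr11:83339296-83339355, minus strand). Its replicates differed by 4.16-fold with GW3965 and 3.66-fold with DMSO, and its groups by -0.03 ± 0.92, with a 95% interval from -2.45 to 2.38. Ccl9, a CCR1 ligand of rodents, read 2.05 and 1.33 on GW3965 replicates a and b, against 2.12 and 1.31 on DMSO replicates a and b. Ccl6, another CCR1 ligand of rodents, stood apart from its neighbours, with 1.94 and 1.92 on GW3965 replicates a and b, against 1.81 and 1.94 on DMSO replicates a and b, a difference of 0.05 ± 0.19 and almost no gap between replicates.

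The CXCR3 ligands are interferon-inducible and attract activated T cells and NK cells. Cxcl9, or MIG, read 1.26 and 0.47 on GW3965 replicates a and b, against 1.23 and 0.45 on DMSO replicates a and b. Cxcl10, or IP-10, read 3.08 and 2.56 on GW3965 replicates a and b, against 3.60 and 2.16 on DMSO replicates a and b. The Cxcl10 values with GW3965 lay between the DMSO values. A second Cxcl10 probe read -4.09 and -5.53 on GW3965 replicates a and b, against -4.16 and -5.63 on DMSO replicates a and b, the last not well above background, and so was over 2-fold lower on replicate b in both groups. A second Cxcl9 probe kept the order of replicates, with 1.00 and -0.22 on GW3965 replicates a and b, against 0.84 and -0.33 on DMSO replicates a and b. That probe was over 2-fold lower on replicate b in both groups, while the Cxcl9 probe that stood for the gene was not. The differences were 0.02 ± 0.40 for Cxcl9 and -0.06 ± 0.53 for Cxcl10.

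Cxcl11, or I-TAC, read 9.10 and 8.59 on GW3965 replicates a and b, against 9.12 and 8.85 on DMSO replicates a and b, a difference of -0.14 ± 0.26. RefSeq annotates it as a transcribed pseudogene in the C57BL/6J reference, the only member that is not protein coding. Its 2 probes did not move alike: the other read 3.66 and 3.69 on GW3965 replicates a and b, against 3.63 and 4.06 on DMSO replicates a and b, with no drop on replicate b. The probes' sequences bear on what they read. Each is shown by 30 of its 60 bases, with the 16-base run found in the most promoter windows in capitals, beside 30 bases of the Cxcl9 probe, none of whose 16-base runs occurs in any window:
Cxcl11 probe at chr5:92788567-92788626, minus strand, mm9: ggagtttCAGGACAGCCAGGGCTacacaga
Cxcl11 probe at chr5:92788640-92788699, minus strand, mm9: cttgaaaGGCAGAGGCAGGAGGAtctcttg
Cxcl9 probe at chr5:92752191-92752250, minus strand, mm9: taacttgatcccatcttcagagcttattct
The first Cxcl11 probe shared a run of 16 bases with 55 of 32851 promoter windows, or 0.167%, and with 19 array probes of other genes, and the second with 10 windows and 2 such probes. Over the other 46 member probes the median was 0 windows and the most was 3. The level given for Cxcl11 is therefore uncertain, since RNA that carries the shared runs could bind these probes, which was not tested.

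Among the other CXC ligands, Cxcl12, or SDF-1, the homeostatic ligand of CXCR4, was nearly level, with 4.56 and 4.61 on GW3965 replicates a and b, against 4.61 and 4.71 on DMSO replicates a and b. Both GW3965 arrays lay below both DMSO arrays, by -0.08 ± 0.18. Its second probe, with 0.19 and -0.06 on GW3965 replicates a and b, against 0.20 and 0.09 on DMSO replicates a and b, overlapped. Cxcl14, a ligand made by epithelia, read 2.75 and 1.52 on GW3965 replicates a and b, against 2.70 and 1.50 on DMSO replicates a and b. Pf4, or platelet factor 4, read 2.58 and 1.40 on GW3965 replicates a and b, against 2.74 and 1.61 on DMSO replicates a and b. Cxcl14 and Pf4 were each over 2-fold lower on replicate b in both groups and overlapped between groups, with differences of 0.03 ± 0.59 and -0.19 ± 0.56. Pf4 is also a product of platelets, whose other markers were measured for 3 of 4 genes, with Gp9 well above background on 0 arrays and a summed level of 0.314 to 0.375 with GW3965 against 0.327 to 0.414 with DMSO. Cxcl16, a membrane-bound ligand of CXCR6, read 2.42 and 2.16 on GW3965 replicates a and b, against 2.37 and 2.02 on DMSO replicates a and b, which differed by 0.10 ± 0.23. Cxcl13, the B cell attractant, was well above background on GW3965 replicate b and DMSO replicate b only, and Cxcl17 on GW3965 replicate b and DMSO replicate a only, so neither was measured.

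Cx3cl1, or fractalkine, the membrane-bound ligand of CX3CR1, read -1.26 and -1.53 on GW3965 replicates a and b, against -1.10 and -1.24 on DMSO replicates a and b, and its groups did not overlap. The difference was -0.23 ± 0.21. Xcl1, or lymphotactin, read -4.77 and -8.18 on GW3965 replicates a and b, against -4.68 and -4.93 on DMSO replicates a and b. It showed the widest spread of the members, and the lowest of these values was not well above background, where the lowest level that was is -6.37 on that array. The fitted difference of -1.67 ± 1.13 rests on that array alone: with its level set at -6.37 the difference is -0.76, and without the array it is 0.04.

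The remaining CC ligands serve homeostatic or allergic traffic, and those measured differed by less than 2-fold between replicates in both groups. Ccl17, a CCR4 ligand that attracts Th2 and regulatory T cells, read -3.25 and -2.71 on GW3965 replicates a and b, against -2.96 and -2.35 on DMSO replicates a and b. Here replicate b was the higher of each pair, and the difference was -0.32 ± 0.32, which kept its sign when any array was left out. Ccl24, an eotaxin that attracts eosinophils, read -2.53 and -2.29 on GW3965 replicates a and b, against -2.62 and -2.48 on DMSO replicates a and b, a difference of 0.13 ± 0.20. Ccl19, a CCR7 ligand of lymphoid tissue, read -2.36 and -2.49 on GW3965 replicates a and b, against -2.52 and -2.52 on DMSO replicates a and b. It was the one member with both GW3965 arrays above both DMSO arrays, by 0.09 ± 0.18. A second Ccl19 probe, at -2.67 and -2.26 on GW3965 replicates a and b, against -2.53 and -2.43 on DMSO replicates a and b, overlapped. The last Ccl19 probe, at -4.56 and -4.88 on GW3965 replicates a and b, against -5.48 and -4.93 on DMSO replicates a and b, did not overlap, with a difference of 0.48. Ccl19 and Ccl27a lie in a region of chromosome 4 that holds near-identical gene copies in this strain, so their values may combine copies.

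Ccl25, the CCR9 ligand of gut and thymus, read 2.51 and 2.71 on GW3965 replicates a and b, against 2.54 and 2.93 on DMSO replicates a and b. Of its 4 probes, 3 were well above background on every array and 1 on none. Ccl27a, a CCR10 ligand, read 1.41 and 1.57 on GW3965 replicates a and b, against 1.32 and 1.84 on DMSO replicates a and b, and its 3 probes were lowest on a replicate a array. Ccl1, a CCR8 ligand, read -4.31 and -4.34 on GW3965 replicates a and b, against -4.53 and -4.31 on DMSO replicates a and b. Its other probe was well above background on 0 of 4 arrays, so its presence rests on 1 probe. The groups overlapped for all of these, with differences of -0.12 ± 0.23, -0.09 ± 0.25 and 0.10 ± 0.19 in the order given. Ccl11, Ccl20, Ccl22, Ccl26 and Ccl28 were well above background on 0 of 4 arrays.

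**Figure D2:**
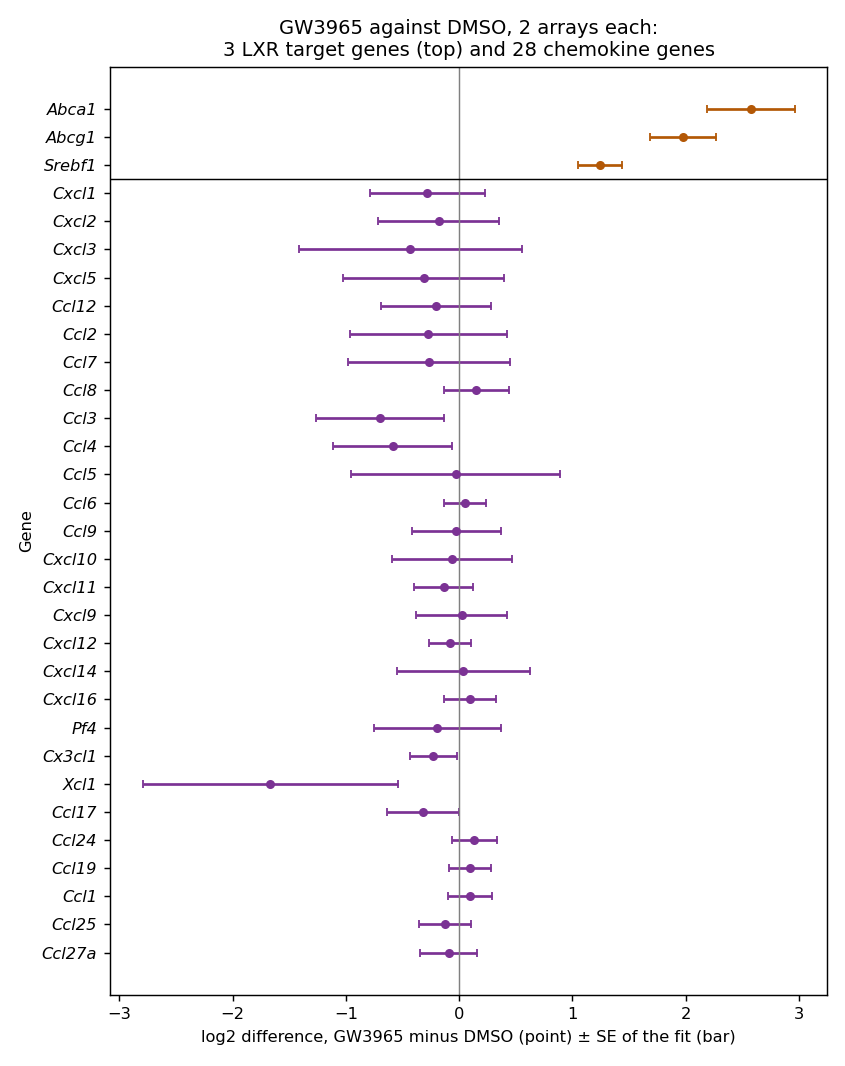
Points give the log2 difference, GW3965 minus DMSO, and bars the SE of the limma fit, for 3 LXR targets at the top and the 28 measured chemokine genes below, in the order of the level plot. The LXR targets lie from 1.24 to 2.58, and the chemokine genes from -1.67 for Xcl1 to 0.15 for Ccl8, most with bars across 0.

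Setting the treatment beside the replicate gap, 0 of 28 members had a difference larger than both gaps, against 9.41% of all genes, and 22 of 28, or 78.6%, had one smaller than both, against 65.9%. Groups without overlap numbered 2 of 28 with GW3965 below (Cx3cl1 and Cxcl12), against 6.55% of all genes, and 1 of 28 with GW3965 above (Ccl19), against 9.41%. Under quantile normalization the counts were 1 and 0, and with normexp background correction 0 and 2. The shares of all genes under these 2 settings are not given here.

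The replicate gap had the same sign in both groups for most members. Its median over the 28 members, replicate b minus a, was -0.65 with GW3965 and -0.79 with DMSO, against 0.05 and 0.08 over all genes. By contrast 5 members were higher on replicate b in both groups, 3 went opposite ways, and 0 were over 2-fold higher on b in both. Of the members that were 2-fold lower, Ccl5 and Cxcl3 had the widest gaps, Cxcl3 by 3.85-fold with GW3965 and 4.80-fold with DMSO. Cxcl2, Cxcl10 and Cxcl1 passed 2-fold with DMSO only, at 2.81-fold, 2.71-fold and 2.22-fold, against 1.34-fold, 1.43-fold and 1.84-fold with GW3965. Ccl12 and Xcl1 passed 2-fold with GW3965 only. Ccl12 did so at 2.13-fold, against 1.81-fold with DMSO, and Xcl1 through the array where it was not well above background. The second probes of Cxcl10 and Cxcl9 passed it in both groups. Whether these gaps differ between groups was not tested.

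**Figure D3:**
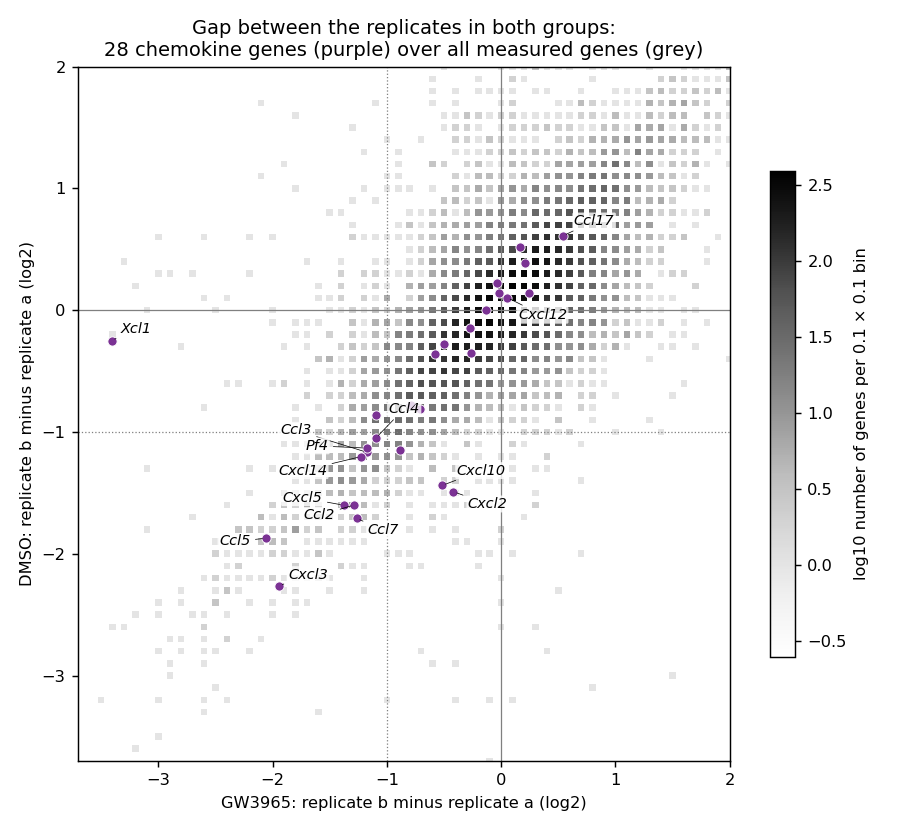
Each purple point is a measured chemokine gene, placed by its log2 level on replicate b minus replicate a with GW3965 (horizontal) and with DMSO (vertical). Grey squares count all measured genes per bin, bins beyond the axes are not drawn, and dotted lines mark 2-fold lower. The 9 genes in the lower left quadrant of the dotted lines include Cxcl3 and Ccl5, and Xcl1 lies alone at the left.

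The genes with wide gaps lay mostly in the known chemokine gene clusters. Of the 9, 8 lie in 3 clusters, read as runs of members under 1 Mb apart on mm9. At chr5:91190490-91334593, 6 genes span 144.1 kb (Cxcl5, Pf4, Cxcl3, Cxcl15, Cxcl1 and Cxcl2), 5 were measured, and 5 of 5 were lower on replicate b in both groups, with median gaps of -1.18 with GW3965 and -1.49 with DMSO. At chr11:83339296-83478111, 5 of 5 genes were measured (Ccl5, Ccl9, Ccl6, Ccl3 and Ccl4), 4 were lower on replicate b in both groups, and the medians were -1.10 and -1.05. At chr11:81850650-81990510, 5 of 6 genes were measured (Ccl2, Ccl7, Ccl12, Ccl8 and Ccl1, without Ccl11), 4 were lower, and the medians were -1.09 and -0.86. The CXCR3 ligands at chr5:92752191-92788699 had 3 of 3 lower and medians of -0.52 and -0.78. At chr8:97274709-97335829, which holds Ccl22, Cx3cl1 and Ccl17, the medians of the 2 measured genes were 0.14 and 0.23. Neighbours share ancestry as well as position, and genes of a cluster are not independent of each other.

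The receptors of these ligands were detected in part. Of 18 signalling receptors 10 were measured, and Ccr1, Ccr4, Cxcr2 and Xcr1 were well above background on 0 arrays, Ccr2 on 2. Cxcr4, the receptor of Cxcl12, read -3.22 and -2.60 on GW3965 replicates a and b, against -3.65 and -3.67 on DMSO replicates a and b. It was higher on both GW3965 arrays, by 0.75 ± 0.27, with an unadjusted limma p of 0.0409 and an adjusted p of 1.00, the 1 receptor of 10 with an unadjusted p under 0.05. Ccr8 differed by 0.18 ± 0.33, Ccr7 by -0.14 ± 0.36 and Ccr3 by 0.09 ± 0.26. Of 5 atypical receptors, which take up chemokines without signalling through G proteins, 4 were measured. Ackr3, which binds Cxcl12, read 0.06 and -0.75 on GW3965 replicates a and b, against -0.84 and -1.29 on DMSO replicates a and b, by 0.72 ± 0.35 and without overlap, with an adjusted p of 1.00 in limma. Ackr2, Ccrl2 and Ackr1 differed by 0.02 to 0.06.

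Cytokines that induce chemokines were followed with their receptors, 9 of 12 measured, with Il17a, Ifng and Ifnb1 well above background on 0 arrays. Il1b read -1.07 and -2.33 on GW3965 replicates a and b, against -0.42 and -1.59 on DMSO replicates a and b, the same order of arrays as Ccl3. Its difference was -0.69 ± 0.59, and Tnf differed by -0.37 ± 0.35, Il6 by -0.23 ± 0.46 and Il1a by 0.18 ± 0.38, all with an adjusted limma p of 1.00. Replicate b was lower in both groups for 8 of 9. Of 14 genes for NF-kB and AP-1 factors and their feedback inhibitors, all measured, 0 had an unadjusted limma p under 0.05 and 11 were lower on replicate b in both groups. Nfkbib differed by 0.18 ± 0.20, Relb by 0.15 ± 0.19, Zfp36 by 0.15 ± 0.20 and Tnfaip3 by -0.16 ± 0.27. Of 6 interferon signalling factors, 6 were lower on replicate b in both groups, and Irf7 was lower by over 2-fold. Irf8 differed by 0.26 ± 0.19 between groups, Irf1 by -0.06 ± 0.26 and Stat2 by 0.05 ± 0.30.

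Markers of the cells that could make chemokines did not all go one way between replicates. Medians of replicate b minus a were -0.94 with GW3965 and -0.89 with DMSO for hepatocytes, and -0.92 and -0.62 for Kupffer cells and macrophages. Adgre1, which encodes F4/80, read -1.84 and -3.26 on GW3965 replicates a and b, against -1.36 and -2.75 on DMSO replicates a and b. The other direction was seen for stellate cells and fibroblasts, with 5 of 6 measured and medians of 0.64 and 0.86. Lrat, a stellate cell marker well above background on 2 arrays, was not measured. The sums were 11.9 and 24.6 on GW3965 replicates a and b, against 9.50 and 22.1 on DMSO replicates a and b. Endothelial markers, 6 of 6 measured, had medians of 0.73 and 0.35 and summed to 34.0 and 42.3 on GW3965 replicates a and b, against 32.2 and 39.1 on DMSO replicates a and b. Cholangiocyte markers, 4 of 5 measured, had medians of 0.88 and 0.67 and sums of 57.2 and 63.8 on GW3965 replicates a and b, against 62.5 and 76.0 on DMSO replicates a and b. Spp1, at 5.75 to 6.09 over the 4 arrays, made up most of each sum. Epcam was well above background on 3 arrays only, and Krt7, on 2 arrays, was not measured. Neutrophil markers, 6 of 6 measured, had medians of 0.32 and 1.02 and sums of 13.9 and 20.6 on GW3965 replicates a and b, against 14.5 and 26.1 on DMSO replicates a and b. This list was split, with 3 of 6 higher on replicate b in both groups, 2 lower in both and 1 opposite. Higher in both were 4 of 5 stellate, 4 of 6 endothelial and 3 of 4 cholangiocyte markers, and lower in both were 0, 1 and 1. T, NK and B cell markers, 4 of 6 measured with Klrb1c well above background on 0 arrays, summed to 6.01 and 5.07 on GW3965 replicates a and b, against 5.97 and 4.97 on DMSO replicates a and b. The part of any of these cell types in the chemokine gaps was not tested.

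**Figure D4:**
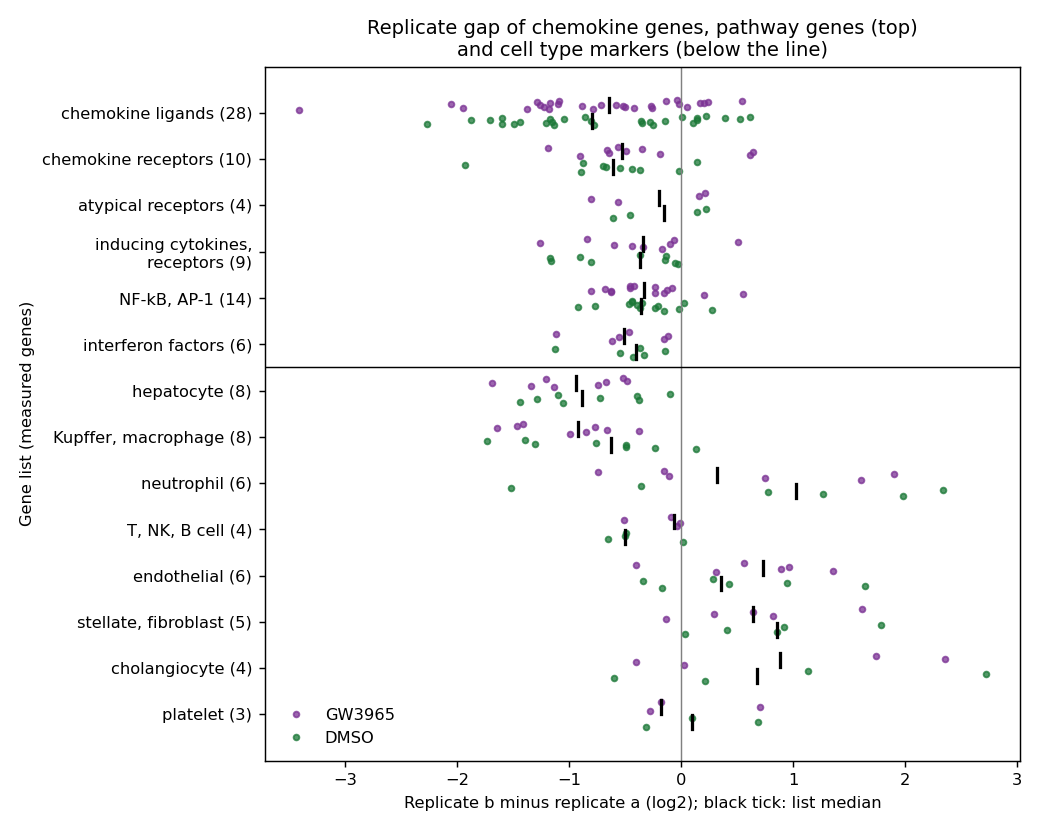
Each dot is 1 measured gene, placed by its log2 level on replicate b minus replicate a, with GW3965 above DMSO in each list and a black tick at the list's median. Chemokine ligands, hepatocyte and macrophage markers have medians below -0.6 in both groups, while stellate and endothelial medians lie above 0.

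The genes whose pattern over the 4 arrays was most like a member's were sought by the root mean square difference of centred log2 levels. For Xcl1, the member with the widest range, these were A1cf at 0.512, Pcsk1 at 0.652 and D230017M19Rik at 0.662. On GW3965 replicate b, A1cf at -6.83 and Pcsk1 at -7.06 lay, like Xcl1, under -6.37, the lowest level well above background there, so this likeness rests on values below background. For Cxcl3, the widest among members well above background on every array and a choice made after its values were seen, the nearest was Fgfr4, the hepatocyte receptor for Fgf15, at 0.0380. It read 1.18 and -0.85 on GW3965 replicates a and b, against 1.68 and -0.52 on DMSO replicates a and b. An expressed sequence tag without a gene symbol followed at 0.125 and Timd2 at 0.145. With 4 arrays, such likeness describes these arrays only.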

How the data were processed

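Total RNA was labelled with Cy3 and hybridised to Agilent design 028005. Per the file headers, the deposited intensity is the processed signal of Feature Extraction 10.7.3.1, background-subtracted, detrended and linear; the submitters' processing notes give 11.5.1.11 instead. The values table from the authors holds the same intensity (largest difference 0). Signals were put on the log2 scale, averaged over a probe's spots and set relative to the 75th percentile of the array. Probes were kept where GW3965 cells, DMSO cells or both had them well above background on each array, and the brightest probe stood for a gene. Groups came from the treatment labels. Files were read with data.table (version 1.17.8). Differences were fitted under R 4.3.3 by limma 3.58.1, with the group as the term and all genes in the fit, with no block and two-sided tests; it was tested on simulated data. Intervals have 2 residual and 2.72 prior degrees of freedom. Promoters came from RefSeq, and figures from matplotlib 3.10.9.

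The members and lists were chosen with earlier results of these data known. Every measured member is named with its values; other lists name up to 4 genes with the smallest p, with markers by count and sum; 1 such gene is not reported here. Adgre1, Irf7 and Fgfr4 were picked outside that rule or after their values were seen. The number of arrays, 4, limits the precision. Positions are on mm9, per the file headers; exon and UTR annotation of that build was not used here. Alternatives tried were other scaling, background correction, filters, probe summaries, variance priors, a replicate block, leaving out arrays and leaving out Xcl1.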

Additional observations from a re-analysis of the deposited data

How the results depend on the processing

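Called members numbered 0 under every alternative run. Over all genes, 15 were called with the replicate block, and 0 to 66 without 1 array (66 without DMSO replicate b, 30 without GW3965 replicate b). The letters a and b are not known to pair samples: deviations of same-letter arrays correlated at 0.72 over all genes, which 2 pairs cannot separate from slide position. With the replicate block 4 of 28 members had an unadjusted limma p under 0.05 (Ccl3, Ccl4, Cxcl3 and Ccl17), against 1333 of 24637 genes. The smallest member p in that limma fit was 0.00175 for Ccl3, and 0 members passed adjustment. The members' median of -0.13 ran from -0.45 to 0.22 without 1 array. Members with both GW3965 arrays below both DMSO arrays, 2 as reported, were 1 after quantile normalization, 1 after centring on the median, 0 after normexp and 4 to 17 without 1 array. Members above, 1 as reported, were 0 after quantile normalization, 2 after normexp, 2 with each probe on its own and 3 to 8 without 1 array, where a lone array has less to overlap with. The shares of all genes without overlap under these alternatives are not given here, so these counts have no background to be read against. The 9 members over 2-fold lower on replicate b were 7 after normexp, 10 after centring on the median and 11 of 38 with each probe on its own. When arrays were left out, 21 of 28 members changed sign and 7 kept it; under other settings 4 did (Ccl5, Cxcl9, Cxcl10 and Cxcl14). Leaving out Xcl1, an alternative chosen after seeing the data, gave a median of -0.12. Signal over background limits Xcl1, whose lowest array was not well above it.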
